A study of Mus musculus with 4 samples.

Results

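The cells described here are stromal cells of mouse inguinal fat that carry the genes of CD142-positive regulatory cells. They were chosen by the counts of single genes in each cell. A cell entered a stromal gate when at least 5 of 7 stromal genes (Pdgfra, Col1a1, Dcn, Lum, Col3a1, Dpt and Col1a2) had a read and the immune gene Ptprc and the endothelial gene Pecam1 had none. A gated cell was kept when at least 2 of the 4 genes F3, Fmo2, Chrdl1 and Tspan11 were detected, and more of these than of each of 3 other sets of 4 genes: the Pi16 set (Pi16, Sema3c, Dpp4, Anxa3), the Cxcl14 set (Cxcl14, Smoc2, Cldn15, Spry1) and the Cdh11 set (Cdh11, Fgf10, Adamts12, Col5a3). This gave 552 cells, called F3-set cells below, of 7230 gated stromal cells and of 14931 cells in all that passed the filter on barcodes. They were 156 cells in the iAdFASNKO Lin- library, 101 in the control Lin- library, 134 in the iAdFASNKO Lin+ library and 161 in the control Lin+ library. The other 6678 gated cells, which hold 1871 cells of the Pi16 set, 1416 of the Cxcl14 set and 1655 of the Cdh11 set, served as the comparison.

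CD142 is tissue factor, the product of F3, a membrane protein that binds coagulation factor VII and starts the clotting cascade. In mouse subcutaneous fat, stromal cells sorted for CD142 were described as cells that hold back the adipocyte differentiation of neighbouring progenitors in culture, while other work found that such cells can become adipocytes themselves. They lie among Dpp4 and Pi16 expressing interstitial progenitors and Icam1 expressing committed preadipocytes in the usual maps of this tissue.

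The stromal vascular fraction, which is the mixture of cells other than adipocytes that digestion frees from a fat pad, was prepared from inguinal white adipose tissue. Cells of 8 iAdFASNKO mice were pooled, as were those of 7 control mice of the C57BL/6 strain, and magnetic beads split each pool into a lineage-positive fraction (Lin+), which the labels call mostly immune, and a lineage-negative fraction (Lin-). Cells with a Ptprc UMI and fewer stromal genes than the gate needs are called Ptprc-positive below. They were 2335 of 4494 cells in iAdFASNKO Lin+ and 902 of 2922 cells in control Lin+. These libraries held 1399 and 1569 gated stromal cells. Cells with Ptprc and enough stromal genes for the gate were in neither group. The labels do not spell out iAdFASNKO, which is read here from its letters as an inducible knockout of Fasn, the gene of fatty acid synthase, in adipocytes. The driver of the deletion, the alleles the controls carry, and the age and sex of the mice, are not stated in the labels, nor is a treatment beyond the genotype. Each of the 4 libraries (iAdFASNKO Lin-, control Lin-, iAdFASNKO Lin+ and control Lin+) was made from cells of 1 pool, with droplet-based 3' counting of unique molecular identifiers (UMIs). There was thus 1 library per genotype and fraction, no test between mice was possible, and genotype, pool and library cannot be told apart.

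Levels are given as counts per 1e+06 UMIs summed over the cells named (CPM). A difference between sums was called where both sums together held at least 20 UMIs, the CPM ratio was at least 1.5 or at most its inverse, and its 95% interval, from the exact binomial distribution of the UMIs, left out 1. All intervals cover counting error only, and not the differences between mice, preparations or libraries.

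The 4 libraries held 3661 to 6133 barcodes, against approximately 6000 cells per condition in the labels, and 2922 to 4494 of these passed the filter. Median depth per F3-set cell was 3502 UMIs in iAdFASNKO Lin-, 6427 in control Lin-, 5529.5 in iAdFASNKO Lin+ and 6195 in control Lin+, against 5555, 10535.5, 5845 and 8356.5 UMIs in the other gated cells of the same libraries. F3-set cells were thus shallower than other gated cells in all 4 libraries, and those of the iAdFASNKO Lin- library were the shallowest. Between 109 and 170 barcode sequences recurred between any 2 libraries, but only 1 was shared by F3-set cells of different libraries. Gm42418, a locus that overlaps ribosomal RNA sequence, took 6.43% of the UMIs of F3-set cells in iAdFASNKO Lin- and 1.47% in control Lin-, and 4.33% in iAdFASNKO Lin+ and 2.17% in control Lin+. The share of UMIs from mitochondrial genes was 2.71% in iAdFASNKO Lin- and 3.21% in control Lin-, and 2.71% in iAdFASNKO Lin+ and 3.63% in control Lin+.

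F3 lies on mouse chromosome 3 at 121723537 to 121735048 on the plus strand of the GRCm38 build. The 250 bases before its start, from RefSeq for GRCm38.p6 (chr3:121723287-121723536, plus strand), are shown because F3 names these cells and because genes of the AP-1 factors are among those described below. Capitals mark the letters TGAGTCA, the core site of AP-1 (Fos and Jun dimers), and GGGCGGGGC, a GC box of the kind bound by Sp1.
F3 promoter: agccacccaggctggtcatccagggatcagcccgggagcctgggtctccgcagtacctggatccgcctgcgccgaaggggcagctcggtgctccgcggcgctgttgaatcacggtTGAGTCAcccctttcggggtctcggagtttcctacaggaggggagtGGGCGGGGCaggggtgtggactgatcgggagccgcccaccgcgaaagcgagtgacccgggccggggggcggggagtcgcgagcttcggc
The first match lies 135 to 129 bases and the second 89 to 81 bases before the start. With both strands searched, TGAGTCA occurred in 4.46% and GGGCGGGGC in 9.94% of 32851 mouse promoters of the same length.

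The 4 genes that chose the cells are given as a description. F3 had a UMI in 75.0% of F3-set cells in iAdFASNKO Lin-, 91.1% in control Lin-, 70.9% in iAdFASNKO Lin+ and 70.8% in control Lin+, against 8.23%, 33.2%, 4.66% and 10.5% of the other gated cells of those libraries. In Ptprc-positive cells, which should lack F3, the share was between 0 and 0.952%. These cells were also chosen for few stromal genes, and the effect of that choice on the share was not tested. The summed level of F3 in F3-set cells was 657 CPM in iAdFASNKO Lin- and 669 CPM in control Lin-, and 405 CPM in iAdFASNKO Lin+ and 394 CPM in control Lin+. The genotype ratio of F3 within the set was 0.983 in Lin- and 1.03 in Lin+. These ratios describe cells chosen partly on F3 and do not measure a change in F3.

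Fmo2, a flavin-containing monooxygenase, had a UMI in 93.6% (iAdFASNKO Lin-), 97.0% (control Lin-), 93.3% (iAdFASNKO Lin+) and 93.2% (control Lin+) of F3-set cells. Chrdl1, a secreted inhibitor of bone morphogenetic proteins (BMPs), was detected in 85.9%, 82.2%, 92.5% and 88.8% of them in the same order of libraries, and the tetraspanin gene Tspan11 in 72.4%, 75.2%, 65.7% and 59.0%. The 4 genes did not mark the same cells equally in the rest of the gate. In the Lin+ libraries Chrdl1 stood at 130 CPM (iAdFASNKO) and 97.7 CPM (control) outside the set, against 20.6 CPM and 9.78 CPM in the Lin- libraries of the same genotypes.

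F3 itself was not restricted to the set. In the iAdFASNKO Lin- library 117 of 281 gated cells with F3 belonged to the F3 set, or 41.6% (35.8 to 47.6%), and 20 to the Cxcl14 set. In control Lin- cells, 759 gated cells had an F3 UMI and 92 of them were F3-set cells, which is 12.1% (exact binomial interval 9.88 to 14.7%), while 449 were in the Cxcl14 set. In Lin+ the shares were 61.7% of 154 cells in iAdFASNKO and 43.5% of 262 cells in control. Among other gated cells F3 was at 23.3 CPM in iAdFASNKO Lin-, against 74.4 CPM in control Lin-, and at 15.3 CPM in iAdFASNKO Lin+, against 24.2 CPM in control Lin+.

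At the edge of the rule, 105 members carried 2 of the 4 set genes, 205 carried 3 and 242 carried all 4, with median depths of 2393, 4888 and 6716 UMIs. A further 846 gated cells had at least 2 set genes but were not kept because another set had as many or more. Mgp codes for the calcification inhibitor matrix Gla protein and was not used by the rule. Summed over the 4 libraries, it stood at 4309 CPM in members with 4 set genes, 1713 CPM with 3 and 1382 CPM with 2. The cells not kept had 825 CPM and gated cells with 1 set gene had 184 CPM. By library, the cells not kept had 1464 (iAdFASNKO Lin-), 1100 (control Lin-), 294 (iAdFASNKO Lin+) and 274 CPM (control Lin+). Members with 2 genes had 2374, 1914, 562 and 726 CPM in that order. Acsbg1, a long-chain acyl-CoA synthetase gene, stood at 136, 53.3 and 51.9 CPM in the members with 4, 3 and 2 genes, and at 1.12 CPM in the cells not kept. Dkk3 is a secreted protein related to the Wnt inhibitors of the Dickkopf family. Over all libraries it stood at 216, 98.5 and 90.8 CPM in the members, against 21.4 CPM in the cells not kept. The proteoglycan gene Bgn had 1595 CPM in the cells not kept, within the range of 1294 to 2472 CPM of the members. By library this held in Lin- only. In Lin+ the cells not kept had 745 CPM in iAdFASNKO, against 967 to 2005 CPM in members, and 1097 CPM in control, against 1420 to 2063 CPM.

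Genes that the rule did not use set the F3-set cells apart from other gated cells in the same way in every library. Because membership came from the expression of the same cells, these levels describe the set and were not tested. Of 10919 genes with enough UMIs in all 4 libraries, 233 (2.13%) were called higher and 149 (1.36%) lower in F3-set cells in all 4. Within single libraries, 11.6% of genes were higher and 7.46% lower in iAdFASNKO Lin-, 9.51% and 6.31% in control Lin-, 7.49% and 10.4% in iAdFASNKO Lin+, and 6.65% and 7.67% in control Lin+. Of 13 further genes known from CD142-positive stromal cells, 10 were measured in all 4 libraries, and 8 of these 10 were higher in all 4. Those 8 were the cholesterol exporter Abcg1, the growth factor gene Clec11a, Gdf10, Mgp, Bgn, the homeobox gene Meox2, Vit and the carboxypeptidase gene Cpe. Their list had median log2 ratios of 3.08 (iAdFASNKO Lin-), 2.84 (control Lin-), 2.49 (iAdFASNKO Lin+) and 2.16 (control Lin+), against 0.05, 0.06, -0.10 and -0.05 over all genes measured.

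Clec11a, which codes for a secreted factor also known as osteolectin, was at 156 CPM in iAdFASNKO Lin- and 249 CPM in control Lin-, and at 211 CPM in iAdFASNKO Lin+ and 199 CPM in control Lin+, against 11.98 to 13.1 CPM in other gated cells. Mgp was at 5167 CPM (iAdFASNKO) and 5888 CPM (control) in Lin- and at 1547 CPM (iAdFASNKO) and 1292 CPM (control) in Lin+. The 2 cell groups did not overlap for either gene within a fraction, although Lin+ F3-set cells had less Mgp than Lin- ones. Gdf10, a ligand of the TGF-beta family also called BMP3B, was at 958 and 1111 CPM in iAdFASNKO and control Lin- cells and at 1032 and 1294 CPM in iAdFASNKO and control Lin+ cells of the set.

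**Figure D1:**
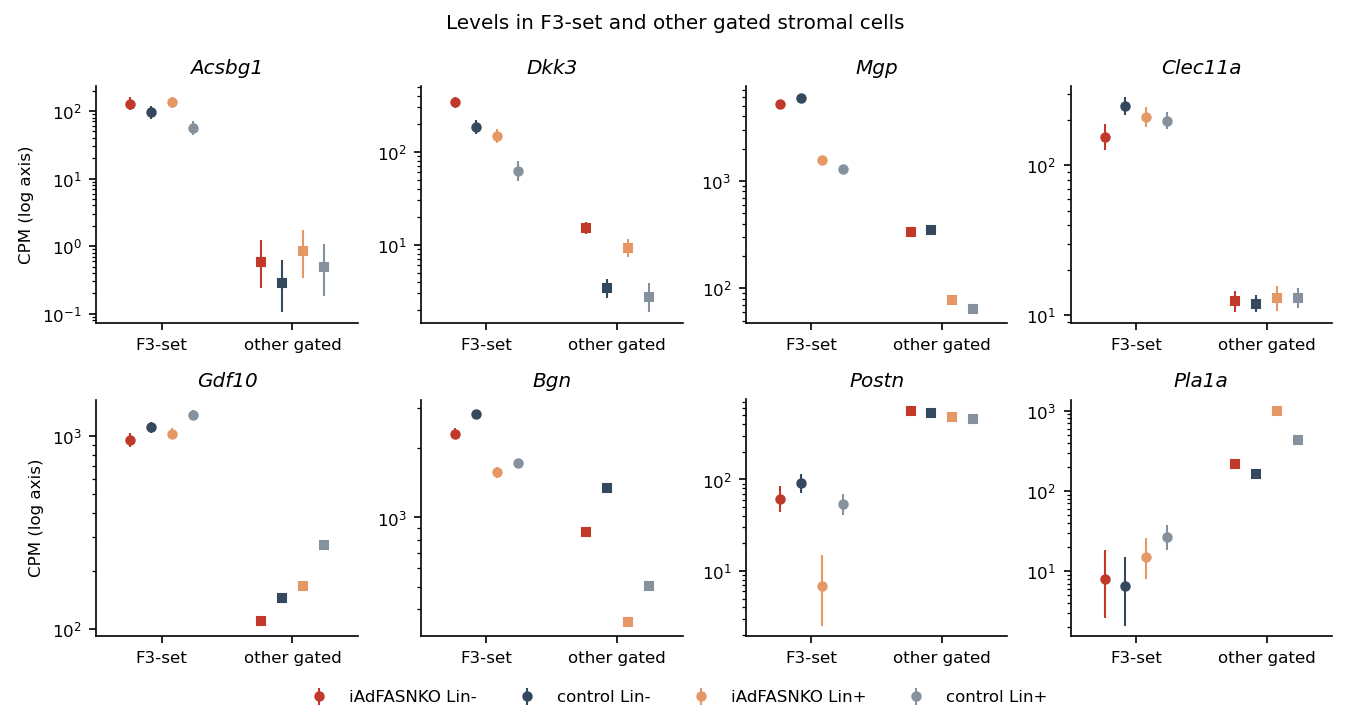
CPM (log axis) of 8 genes that the rule did not use, in F3-set cells (circles, left) and other gated stromal cells (squares, right) of the 4 libraries, with 95% Poisson intervals that cover counting error only. Acsbg1, Dkk3, Mgp, Clec11a, Gdf10 and Bgn are higher in all 4 F3-set sums than in the other gated cells of the same library, and Postn and Pla1a are lower.

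Acsbg1 had the largest ratio that held in all 4 libraries. It was at 129 CPM in iAdFASNKO Lin-, 95.5 CPM in control Lin-, 136 CPM in iAdFASNKO Lin+ and 56.4 CPM in control Lin+ F3-set cells, against 0.288 to 0.841 CPM in other gated cells, which are log2 ratios of 6.83 to 8.38. Of the gated cells with an Acsbg1 UMI, 84.1 to 90.7% per library were F3-set cells, a share that was looked at after the level had been seen. Dkk3 was at 340 CPM in iAdFASNKO Lin- and 183 CPM in control Lin-, and at 147 CPM in iAdFASNKO Lin+ and 62.4 CPM in control Lin+ F3-set cells, against 2.73 to 15.2 CPM in the other gated cells. The remaining genes of the 15 with the largest such differences were Nkain4, a protein that interacts with the sodium pump, the glutamate receptor subunit gene Gria4, the cardiac homeobox regulator Hopx, the smooth muscle repressor Prdm6, D030045P18Rik, Lgi1, the LIM domain gene Lmo7, the Ral exchange factor Ralgps2, the GTPase regulator Arhgdib, the collagen-binding proteoglycan gene Fmod and the sodium leak channel gene Nalcn. Hopx, for example, stood at 77.8 CPM in iAdFASNKO Lin- and 101 CPM in control Lin-, and at 41.4 CPM in iAdFASNKO Lin+ and 78.0 CPM in control Lin+ F3-set cells, against 1.44 to 7.44 CPM in other gated cells.

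Complement genes were higher as a group. Of 13 measured, 8 were higher and 1 lower in all 4 libraries, with median log2 ratios of 0.85 to 1.26. C2, a component of the classical and lectin pathways, was at 730 CPM in iAdFASNKO Lin- and 800 CPM in control Lin-, and at 1013 CPM in iAdFASNKO Lin+ and 893 CPM in control Lin+ F3-set cells, against 91.7 to 149 CPM in other gated cells. The terminal component C7 and the soluble inhibitor Serping1 (C1 inhibitor) were among the higher ones as well, as were C4b, Cfb, C1qtnf7 and Clu. C1qtnf7 codes for a C1q-related protein that is not a complement component, so the list is wider than complement itself. The membrane-bound inhibitor Cd55, a marker of interstitial progenitors, was the lower one, at 19.4 to 37.3 CPM in F3-set cells against 46.6 to 461 CPM in other gated cells.

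Among 25 measured genes of TGF-beta and BMP signalling, 7 were higher and 1 lower in all 4 libraries. The higher ones included the ligands Bmp4 and Gdf10, the secreted inhibitor Fstl3, the BMP target genes Id2 and Id4 and the co-receptor Eng, and the lower one was the ligand Bmp2. Of 10 Wnt genes, the secreted modulators Sfrp2, Dkk3 and Rspo1 were higher and Dkk2 was lower in all 4. Of 12 retinoid genes, 3 were higher and none was lower in all 4, among them the retinol carrier Rbp4 and the retinoic acid target Tgm2.

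Of 16 adipogenic transcription factors, Klf5 alone was called in the same direction in all 4 libraries. Klf5 acts early in adipocyte differentiation in culture, and was at 152 CPM in iAdFASNKO Lin- and 89.1 CPM in control Lin-, and at 41.4 CPM in iAdFASNKO Lin+ and 19.9 CPM in control Lin+ F3-set cells, against 1.80 to 8.12 CPM in other gated cells. Of 12 factors known to restrain adipogenesis, only Klf2 was called in all 4, and it was lower. Of 11 measured genes of lipid uptake and early adipocytes, Fabp4, Plin2 and Car3 were lower and Apod was higher in all 4. Fabp4, the fatty acid binding protein of adipocytes, was at 251 CPM in iAdFASNKO Lin- and 38.7 CPM in control Lin-, and at 13.8 CPM in iAdFASNKO Lin+ and 13.9 CPM in control Lin+ F3-set cells, against 1274, 706, 78.3 and 176 CPM in the other gated cells of those libraries. Adipoq, which marks mature adipocytes, had no UMI in F3-set cells of any library.

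Of 16 measured genes of fatty acid and sterol synthesis, 5 were lower and none higher in all 4 libraries, with medians of -0.59 to -0.94. These included the elongase Elovl6, the sterol sensor Insig1, and Hmgcs1 and Sqle of sterol synthesis. Immediate early and heat shock genes, which also respond to tissue digestion, were lower too: 5 of 22 were lower in all 4 libraries (Jun, Egr1, Hspa1a, Hsp90aa1 and Dnajb1), and none was higher, with medians of -1.09 and -1.11 in iAdFASNKO and control Lin- cells and -0.55 and -0.60 in iAdFASNKO and control Lin+ cells. Jun, which codes for a subunit of AP-1, stood at 1134 CPM in iAdFASNKO Lin- and 1598 CPM in control Lin- F3-set cells, against 3347 and 4634 CPM in other gated cells.

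Of 18 chemokines and cytokines, Ccl2, Ccl7, Cxcl1, Cxcl9, Cxcl10 and Cxcl13 were lower in all 4 libraries and Cxcl12, the ligand of Cxcr4, was higher. Ccl2, which recruits monocytes, was at 4.76 CPM in iAdFASNKO Lin- and 25.8 CPM in control Lin-, and at 5.75 CPM in iAdFASNKO Lin+ and 13.9 CPM in control Lin+ F3-set cells, against 62.0 to 147 CPM in other gated cells. Cxcl12 was at 1054 and 725 CPM in iAdFASNKO and control Lin- cells and at 1475 and 1028 CPM in iAdFASNKO and control Lin+ cells of the set, against 236 to 405 CPM in other gated cells. Of 15 coagulation and fibrinolysis genes other than F3, 1 was higher, the ligand of TAM receptors Gas6, and 2 were lower in all 4, among them the activator Plau. The growth factors Fgf7 and Hgf were higher and Vegfd and Angptl2 lower among 18 measured.

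Matrix genes split. Of 23 proteoglycans and other matrix proteins, Bgn, Fmod, Fbln1, Mgp and Ecm1 were higher and Efemp1, Postn, Loxl1 and Thbs1 were lower in all 4 libraries. Postn, which codes for periostin, was at 61.9 CPM in iAdFASNKO Lin- and 90.4 CPM in control Lin-, and at 6.90 CPM in iAdFASNKO Lin+ and 53.8 CPM in control Lin+ F3-set cells, against 455 to 556 CPM in other gated cells. Of 14 collagens outside the rule, Col6a3 was lower in all 4 and none was higher. The 10 genes with the largest consistent deficit were the phospholipase gene Pla1a, Postn, the convertase Pcsk6, the pentraxin Ptx3, Ccl2, the laminin chain Lamb1, the nuclear receptor Rorb, Fabp4, the scavenger receptor for chemokines Ackr3 and the vasoconstrictor gene Edn1. Ptx3 had no UMI in iAdFASNKO Lin- and Rorb none in iAdFASNKO Lin+ F3-set cells.

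In the other lists few genes were called in all 4 libraries. Of 11 genes of the insulin-like growth factor axis, Igfbp7 was higher and Igfbp5 and Htra3 lower. Fmo1 and the methyltransferase gene Inmt were higher among 20 xenobiotic and redox enzymes, and H2-Q4, H2-Q6 and H2-Q7 lower among 12 genes of MHC class I. None of 22 interferon response genes, 25 nuclear subunits of oxidative phosphorylation or 12 metallothionein and glucocorticoid response genes was called in the same direction in all 4. Leaving out the 15, 9, 4 and 4 F3-set cells of iAdFASNKO Lin-, control Lin-, iAdFASNKO Lin+ and control Lin+ that held at least 5 UMIs of mural, Schwann, endothelial, immune, perineurial or tendon markers gave 222 genes higher and 147 lower in all 4.

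Genes that travel with F3 were sought among all gated cells thinned to 3000 UMIs, as the share with a UMI in F3-positive cells less the share in F3-negative cells, averaged over the 4 libraries. Among the 8 genes most like F3 were Fmo2 (42.6 percentage points), Mgp (41.9), Bgn (32.5), Gdf10 (30.1), Chrdl1 (29.5), Gas6 (29.4) and Crispld2 (29.1), from 137, 381, 100 and 135 F3-positive cells in iAdFASNKO Lin-, control Lin-, iAdFASNKO Lin+ and control Lin+. Fmo2 and Chrdl1 were themselves set genes. Of the genes named, the differences were smallest in control Lin- for all but Crispld2, with 40.3 points in iAdFASNKO Lin- and 7.20 points in control Lin- for Gdf10. Control Lin- is the library in which most F3-positive cells were in the Cxcl14 set.

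Cells of other types were looked for inside the set through 11 marker lists. Mesothelial, epithelial and adipocyte markers summed to at most 6.35 CPM in every library. Mural markers (pericytes and smooth muscle) summed to 1471 CPM in iAdFASNKO Lin- and 187 CPM in control Lin-, and to 42.6 CPM in iAdFASNKO Lin+ and 66.8 CPM in control Lin+, and 48.3% of the first sum came from 1 cell. The pericyte marker Rgs5 was at 0 in all libraries but iAdFASNKO Lin-. Schwann markers summed to 260 CPM in iAdFASNKO Lin- and 65.8 CPM in control Lin-, and to 87.4 CPM in iAdFASNKO Lin+ and 59.0 CPM in control Lin+. Erythroid genes, as haemoglobin, stood at 2258 CPM in iAdFASNKO Lin+ and 3635 CPM in control Lin+, against 12.7 and 6.45 CPM in the iAdFASNKO and control Lin- libraries, and 68.9% of the UMIs in control Lin+ came from 1 cell. Immune markers reached 101 CPM in iAdFASNKO Lin+ and 53.8 CPM in control Lin+ and 1.59 and 6.45 CPM in Lin-. The remaining 4 lists, of endothelial, perineurial, tendon and cycling markers, summed to at most 73.0 CPM in any library. A doublet caller marked 4 of the 156 cells of iAdFASNKO Lin-, none in control Lin- and iAdFASNKO Lin+, and 1 in control Lin+.

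The share of F3-set cells depended on the denominator. They were 7.26% (exact binomial interval 6.20 to 8.44%) of gated cells in iAdFASNKO Lin- and 4.78% (3.91 to 5.78%) in control Lin-, a ratio of 1.52 (1.19 to 1.94). In Lin+ they were 9.58% (8.09 to 11.2%) in iAdFASNKO and 10.3% (8.80 to 11.9%) in control, a ratio of 0.933 (0.751 to 1.16). As shares of all cells past the filter they were 3.54% in iAdFASNKO Lin- and 3.25% in control Lin-, a ratio of 1.09 (0.849 to 1.39), and 2.98% in iAdFASNKO Lin+ and 5.51% in control Lin+, a ratio of 0.541 (0.432 to 0.677). The second denominator also holds the immune cells of each library. Ptprc-positive cells were 2335 of 4494 cells in iAdFASNKO Lin+ and 902 of 2922 in control Lin+, and the reason for this difference was not tested.

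Depth bears on these shares, since the rule counts detected genes. With every cell thinned to 3000 UMIs and shallower cells left out (1504 in iAdFASNKO Lin-, 463 in control Lin-, 2054 in iAdFASNKO Lin+ and 950 in control Lin+), the F3 set was 4.69% of gated cells in iAdFASNKO Lin- and 3.61% in control Lin-, and 8.53% in iAdFASNKO Lin+ and 7.78% in control Lin+. The genotype ratios were then 1.30 (0.953 to 1.77) in Lin- and 1.10 (0.843 to 1.42) in Lin+, and both intervals held 1. Thinning left out members unequally. At least 3000 UMIs were held by 97 of 156 F3-set cells in iAdFASNKO Lin- and 79 of 101 in control Lin-. In Lin+ these were 98 of 134 in iAdFASNKO and 128 of 161 in control. Gated cells numbered 2149 before and 1769 after thinning in iAdFASNKO Lin-, and 2113 and 1966 in control Lin-. The parts of depth and of the cells left out were not tested. The other sets of the gate also differed between the genotypes in Lin-, where the Cxcl14 set was 7.63% of gated cells in iAdFASNKO and 50.6% in control and the Cdh11 set 49.8% in iAdFASNKO and 15.8% in control.

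**Figure D2:**
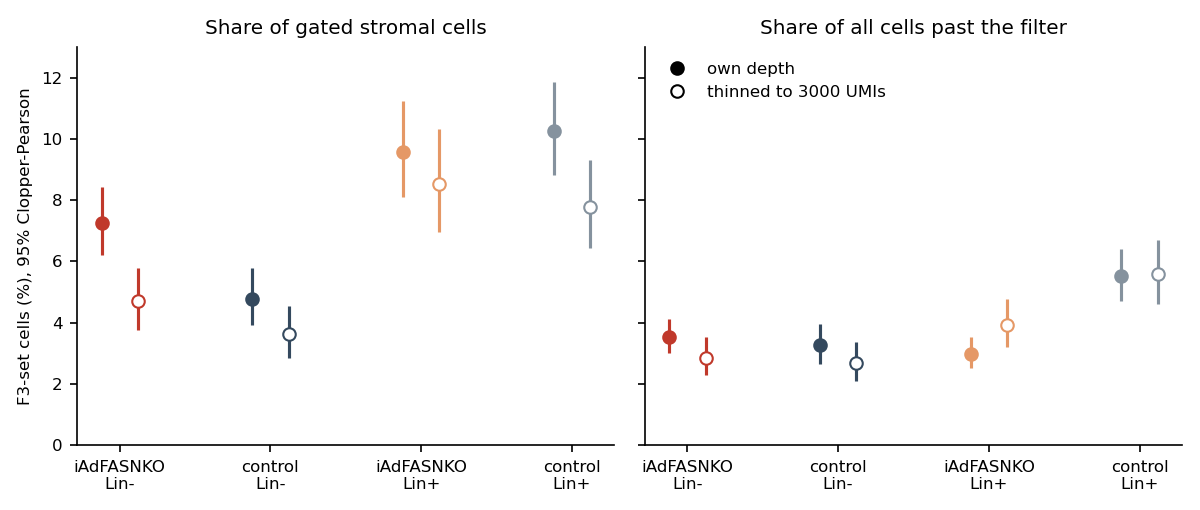
Share of F3-set cells (%) among gated stromal cells (left) and among all cells past the filter (right) in each library, with exact 95% binomial intervals. Filled points are cells at their own depth and open points cells thinned to 3000 UMIs. Of gated cells, iAdFASNKO Lin- has 7.26% and control Lin- 4.78% at their own depth, and 4.69% and 3.61% when thinned.

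The F3 set took a larger share of gated cells in Lin+ than in Lin- in both genotypes. The Lin+ over Lin- ratio was 1.32 (1.06 to 1.65) in iAdFASNKO and 2.15 (1.69 to 2.73) in control, and 1.82 (1.37 to 2.42) in iAdFASNKO and 2.16 (1.61 to 2.88) in control after thinning. The beads were aimed at lineage markers, so Lin+ stromal cells are those that the beads retained, and the reason for their retention was not tested. The Pi16 set had a larger ratio, with 65.5% of gated cells in iAdFASNKO Lin+ and 6.00% in iAdFASNKO Lin-, and 48.1% in control Lin+ and 3.31% in control Lin-.

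F3-set cells of the Lin+ fraction differed in many genes from those of the Lin- fraction. Of 7390 genes measured in both genotypes, 121 (1.64%) were higher and 193 (2.61%) lower in Lin+ in both, and 17 (0.23%) were called in opposite directions. The named genes were picked by a rule added after the data had been seen, which took the 12 with the largest consistent ratio in each direction and left out haemoglobin and immunoglobulin genes. Those higher in Lin+ were Ly6c1, the sphingomyelinase gene Smpd3, the cytokine receptor Il31ra, the chemokine decoy Ackr1, the decoy receptor Il1r2, Ism1, the protein C receptor Procr, angiotensinogen (Agt), the adhesion genes Cadm3 and Opcml, Plac8 and Anxa3. Those lower were the phosphatase Ptprb, the guanylate cyclase subunit Gucy1a1, Fmod, the adenylate cyclase Adcy7, Trib2, the neurotrophic receptors Gfra2 and Ntrk3, the myosin kinase Mylk, Fhl2, Fxyd6, Sorcs2 and the growth factor midkine (Mdk). Anxa3 is in the Pi16 set of the rule.

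Ly6c1, a surface antigen of the Ly6 family, was at 1244 CPM in iAdFASNKO Lin+ and 278 CPM in iAdFASNKO Lin-, a ratio of 4.47 (3.81 to 5.28), and at 1243 CPM in control Lin+ and 283 CPM in control Lin-, a ratio of 4.40 (3.81 to 5.09). The values of the 2 genotypes nearly coincided within each fraction. In other gated cells the ratios were 4.36 in iAdFASNKO and 4.92 in control, so their sums differed in the same direction. The mix of sets in those sums also differed between the fractions, and its part in these ratios was not tested. Fmod was at 29.9 CPM in iAdFASNKO Lin+ and 229 CPM in iAdFASNKO Lin-, and at 28.6 CPM in control Lin+ and 247 CPM in control Lin-, ratios of 0.131 (0.0826 to 0.200) and 0.116 (0.0777 to 0.169). Ptprb, best known from vessels, had no UMI in iAdFASNKO Lin+ and 87.3 CPM in iAdFASNKO Lin-, and 5.20 CPM in control Lin+ and 82.6 CPM in control Lin-.

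For Adcy7 the other gated cells went the opposite way, and for Ntrk3 they did so in control. Adcy7 was at 13.8 CPM in iAdFASNKO Lin+ and 116 CPM in iAdFASNKO Lin-, and at 14.7 CPM in control Lin+ and 90.4 CPM in control Lin- F3-set cells, while its log2 ratios in other gated cells were 1.18 in iAdFASNKO and 0.82 in control. Ntrk3, the receptor of neurotrophin 3, had ratios of 0.217 (0.121 to 0.373) in iAdFASNKO and 0.217 (0.128 to 0.356) in control F3-set cells, against log2 ratios of 0.28 and 1.19 in other gated cells. The difference between the 2 groups of cells was not tested.

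Single cells were sorted by pairs of genes chosen after these levels had been seen. Ly6c1 without Mfap4, a gene of elastic fibres, was found in 77.6% of F3-set cells of iAdFASNKO Lin+ and 37.2% of iAdFASNKO Lin-, and in 78.3% of control Lin+ and 42.6% of control Lin-. Mfap4 without Ly6c1 was found in 0.746% and 17.3% of those of iAdFASNKO Lin+ and Lin-, and in 1.86% and 11.9% of those of control Lin+ and Lin-. Cxcl14 and Cdh11 belong to 2 of the other sets of the rule, which limits how many genes of those sets a member can have, so their shares describe the members under that limit. Cxcl14 without Cdh11 was found in 59.0% (iAdFASNKO Lin+), 16.7% (iAdFASNKO Lin-), 57.8% (control Lin+) and 26.7% (control Lin-) of F3-set cells. Cdh11 without Cxcl14 was found in 2.24%, 44.9%, 7.45% and 38.6% in the same order of libraries. After thinning to 3000 UMIs, the cells with Cdh11 alone were 2.08% in iAdFASNKO Lin+ and 42.2% in iAdFASNKO Lin-, and 7.27% in control Lin+ and 29.6% in control Lin-.

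**Figure D3:**
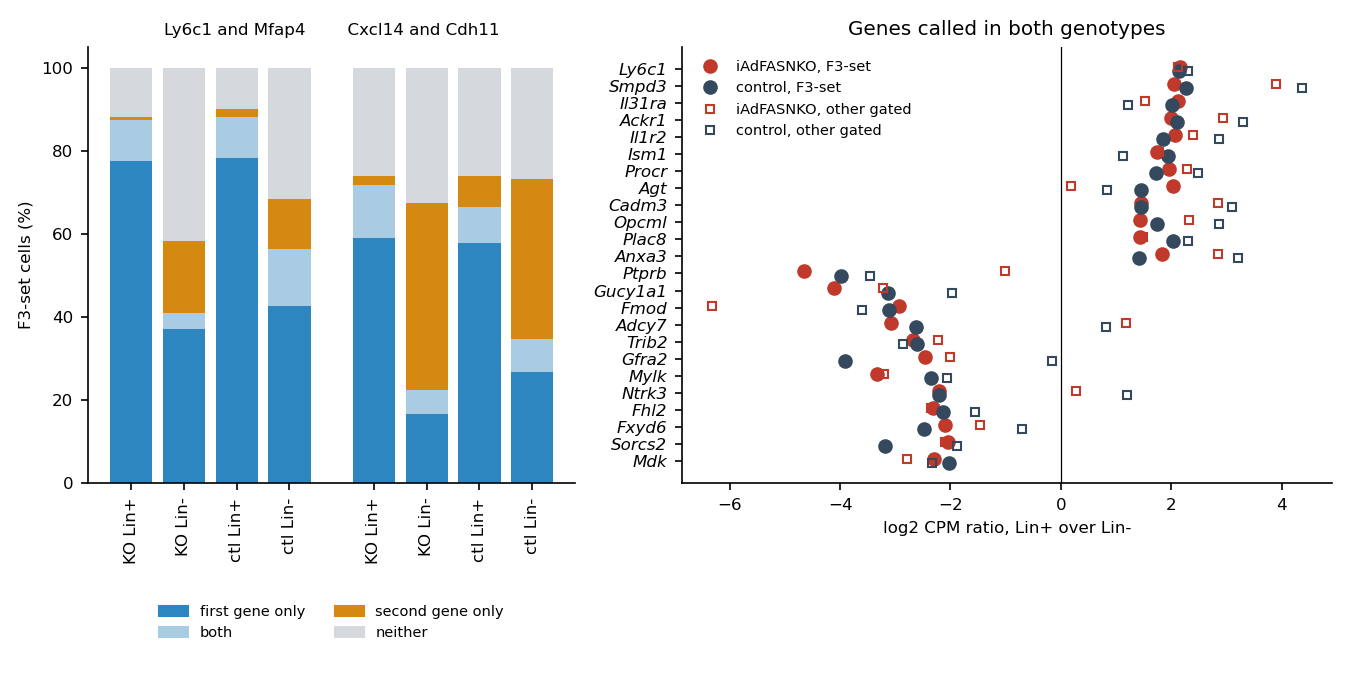
Left, share of F3-set cells (%) in each library in which Ly6c1 or Mfap4, and Cxcl14 or Cdh11, was detected alone, with the other gene, or not at all (KO, iAdFASNKO; ctl, control). Right, log2 CPM ratio of Lin+ over Lin- for the 24 named genes in F3-set cells (filled circles) and other gated cells (open squares) of both genotypes: the filled circles of the 12 upper genes lie above 0 and those of the 12 lower genes below 0.

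Gene groups also differed between the fractions. Of 12 measured complement genes, 5 were higher and 1 lower in Lin+ than in Lin- in iAdFASNKO, and 7 were higher and none lower in control, with medians of 0.62 and 0.72 that stood beside 0.58 and 0.67 in other gated cells. The background shares in F3-set cells were 6.16% of genes higher and 7.66% lower in iAdFASNKO, and 4.81% higher and 7.37% lower in control. Of 25 matrix protein genes, 5 were higher and 10 lower in Lin+ in iAdFASNKO and 5 higher and 7 lower in control. The matrix list kept genes of the rule here. None of 25 oxidative phosphorylation genes was called in either genotype. The haemoglobin, immune and mural marker levels given above moved with the fraction in both genotypes, as did the Schwann marker level in iAdFASNKO. Without the F3-set cells that held at least 5 UMIs of markers of other types, haemoglobin aside, 112 genes were higher and 158 lower in Lin+ in both genotypes. The part of haemoglobin in these results was not tested.

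Between genotypes, F3-set cells of iAdFASNKO mice had more Npy1r, Nr1d1 and Hgf and less S100a4, Sult1e1, Sfrp2 and Sparc than those of control mice in both fractions. In Lin-, 459 of 7412 genes (6.19%) were higher and 468 (6.31%) lower in iAdFASNKO, and in Lin+, 419 of 8393 (4.99%) were higher and 318 (3.79%) lower. Of 7181 genes measured in both fractions, 75 (1.04%) were higher in both, 55 (0.766%) lower in both and 25 (0.348%) were called in opposite directions. The 75 shared genes were 17.5% of the 428 higher in Lin- and 20.5% of the 366 higher in Lin+, and the 55 were 12.01% of the 458 lower in Lin- and 20.5% of the 268 lower in Lin+. Both contrasts used cells of the same 2 pools of mice. In other gated cells, 8.92% of 12960 genes were higher and 6.47% lower in Lin-, and 9.46% of 12346 were higher and 4.59% lower in Lin+. Those sums were deeper and so allowed smaller ratios to be called.

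The 12 genes with the largest consistent excess were Npy1r, Nr1d1, the ribosomal pseudogene Rpl10-ps3, Mettl7a1, the AMP deaminase gene Ampd3, Lmo7, Fam13a, Zfp945, Hgf, Gm42418, Ralgps2 and Hhip. Npy1r, the neuropeptide Y receptor Y1, was at 108 CPM in iAdFASNKO Lin- and 40.0 CPM in control Lin-, a ratio of 2.70 (1.74 to 4.27), and at 78.2 CPM in iAdFASNKO Lin+ and 21.7 CPM in control Lin+, a ratio of 3.61 (2.25 to 5.96). Nr1d1, the clock repressor Rev-erb alpha, was at 103 CPM in iAdFASNKO Lin- and 38.7 CPM in control Lin-, a ratio of 2.67 (1.70 to 4.26), and at 65.6 CPM in iAdFASNKO Lin+ and 13.9 CPM in control Lin+, a ratio of 4.73 (2.68 to 8.82). Both iAdFASNKO libraries exceeded both control libraries for these genes in F3-set cells. In other gated cells both genes were also called higher in each fraction, with log2 ratios of 1.28 in Lin- and 0.83 in Lin+ for Npy1r and of 1.95 in both fractions for Nr1d1.

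Hgf, which codes for hepatocyte growth factor, was at 93.7 CPM in iAdFASNKO Lin- and 46.5 CPM in control Lin-, a ratio of 2.02 (1.31 to 3.14), and at 56.4 CPM in iAdFASNKO Lin+ and 14.7 CPM in control Lin+, a ratio of 3.82 (2.16 to 7.08). The methyltransferase-like gene Mettl7a1 was at 138 CPM in iAdFASNKO Lin- and 55.5 CPM in control Lin-, and at 123 CPM in iAdFASNKO Lin+ and 35.5 CPM in control Lin+. Here too both iAdFASNKO libraries were above both control libraries. Hhip, a membrane-bound inhibitor of hedgehog ligands, was at 81.0 CPM in iAdFASNKO Lin- and 41.3 CPM in control Lin-, a ratio of 1.96 (1.24 to 3.15), and at 71.3 CPM in iAdFASNKO Lin+ and 20.8 CPM in control Lin+, a ratio of 3.43 (2.11 to 5.74). The UMIs of Hhip came from 23, 11, 10 and 7 F3-set cells of iAdFASNKO Lin-, control Lin-, iAdFASNKO Lin+ and control Lin+. In the set, 1 cell held 19 of 62 UMIs of Hhip in iAdFASNKO Lin+ and 12 of 32 in control Lin-. In other gated cells Hhip was called lower in iAdFASNKO, with log2 ratios of -2.25 in Lin- and -2.92 in Lin+. The latter rests on 2 UMIs in iAdFASNKO and 22 in control. The difference between the cell groups was not tested.

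Gm42418 had ratios of 4.38 (4.29 to 4.47) in Lin- and 2.001 (1.97 to 2.03) in Lin+, and of 3.67 and 3.18 in other gated cells. Its part in the other ratios was not tested.

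**Figure D4:**
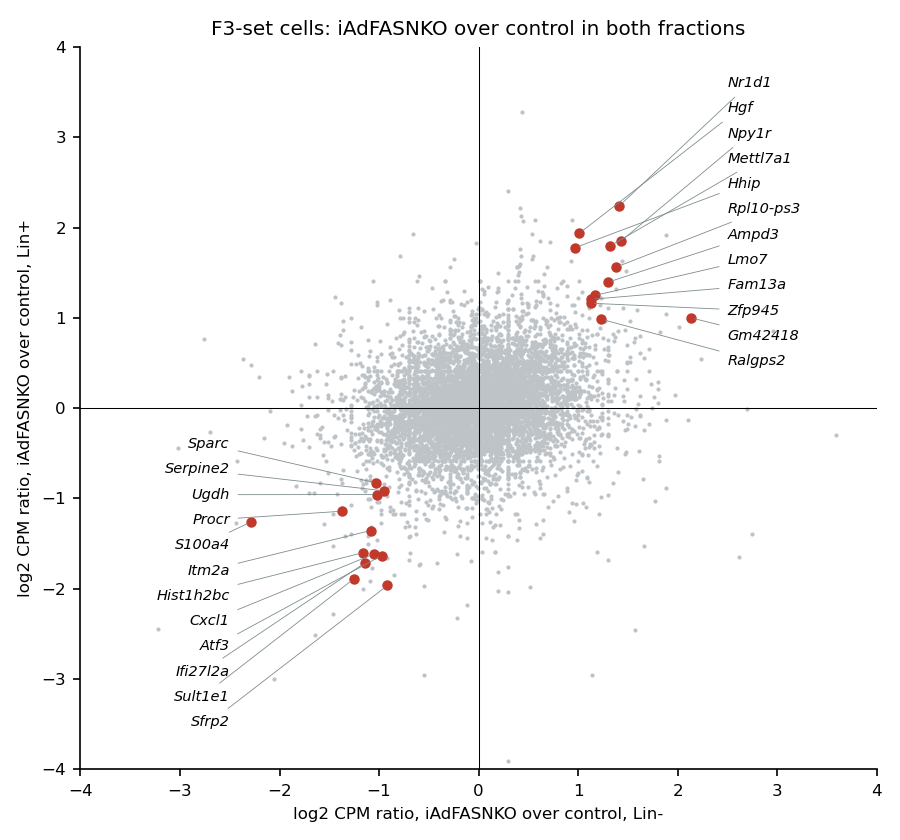
Log2 CPM ratio of iAdFASNKO over control in F3-set cells, in Lin- (x axis) and Lin+ (y axis), for the genes measured in both fractions (grey, 7177 of 7181 within the axes), with the 24 named genes in red. The named genes lie in the upper right and lower left, where the 75 genes higher in both fractions and the 55 lower in both are found.

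The 12 genes with the largest consistent deficit were S100a4, Sult1e1, the histone gene Hist1h2bc, Procr, the interferon-inducible gene Ifi27l2a, Itm2a, Cxcl1, Atf3, the UDP-glucose dehydrogenase gene Ugdh, the protease inhibitor Serpine2, Sfrp2 and Sparc. S100a4, a calcium-binding protein of fibroblasts and leukocytes, was at 82.6 CPM in iAdFASNKO Lin- and 403 CPM in control Lin-, a ratio of 0.205 (0.150 to 0.276), and at 230 CPM in iAdFASNKO Lin+ and 551 CPM in control Lin+, a ratio of 0.417 (0.354 to 0.490). In other gated cells its log2 ratios were 0.47 in Lin- and -0.22 in Lin+, neither of which was called. Sult1e1, the oestrogen sulfotransferase, was at 121 CPM in iAdFASNKO Lin- and 288 CPM in control Lin-, and at 129 CPM in iAdFASNKO Lin+ and 479 CPM in control Lin+, with ratios of 0.419 (0.319 to 0.546) and 0.269 (0.218 to 0.330). In control Lin-, 99 of its 223 UMIs came from 1 cell.

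Sparc, which codes for a collagen-binding matrix protein, was at 6357 CPM in iAdFASNKO Lin- and 12971 CPM in control Lin-, a ratio of 0.490 (0.472 to 0.508), and at 6259 CPM in iAdFASNKO Lin+ and 11123 CPM in control Lin+, a ratio of 0.563 (0.545 to 0.581). Both iAdFASNKO values were below both control values, and other gated cells had log2 ratios of -0.46 and -1.03. Atf3, a stress-induced transcription factor, was at 119 CPM in iAdFASNKO Lin- and 234 CPM in control Lin-, and at 58.7 CPM in iAdFASNKO Lin+ and 182 CPM in control Lin+, ratios of 0.510 (0.384 to 0.671) and 0.322 (0.232 to 0.439). Both iAdFASNKO values were below both control values for S100a4, Sult1e1 and Atf3 too.

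Of the 48 ratios of these 24 genes, 46 stayed called in the same direction without the F3-set cells that held markers of other cell types, and Itm2a and Ugdh in Lin- lost their call, with log2 ratios of -0.27 and -0.30. With cells thinned to 3000 UMIs, 34 of 48 stayed called. Among the 14 that did not, the log2 ratios in Lin- were 0.98 for Npy1r, 0.92 for Hgf and 1.13 for Hhip, with intervals that held 0, and -0.19 for Sult1e1. For Atf3 in Lin+ it was -0.74.

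Wnt genes were the list with the lowest median. Of 9 measured, 5 were lower and 1 higher in iAdFASNKO Lin-, and 6 were lower and 2 higher in Lin+, with medians of -0.92 and -0.95, against -0.00 and 0.05 over all genes measured and -0.03 and -0.17 for the Wnt list in other gated cells. The shares over all genes were 6.31% lower and 6.19% higher in Lin-, and 3.79% and 4.99% in Lin+. The Wnt genes that moved are not all of 1 role: Wnt2 is a ligand, and Sfrp2 and Sfrp4 bind Wnt ligands outside the cell. Sfrp2 was at 376 CPM in iAdFASNKO Lin- and 710 CPM in control Lin-, a ratio of 0.530 (0.453 to 0.618), and at 411 CPM in iAdFASNKO Lin+ and 1604 CPM in control Lin+, a ratio of 0.256 (0.228 to 0.287), and 106 of its 237 UMIs in iAdFASNKO Lin- came from 1 cell. Sfrp4 was at 243 CPM in iAdFASNKO Lin- and 423 CPM in control Lin-, and at 337 CPM in iAdFASNKO Lin+ and 619 CPM in control Lin+, while its log2 ratios in other gated cells were 0.57 and 0.72. Of these UMIs of Sfrp4, 85 of 153 in iAdFASNKO Lin- and 139 of 328 in control Lin- came from 1 cell each, and 16 of the 24 UMIs of Wnt2 in control Lin- did. Dkk3 was higher in iAdFASNKO, with ratios of 1.85 (1.49 to 2.31) in Lin- and 2.36 (1.75 to 3.19) in Lin+. With at least 50 UMIs asked of each gene the Wnt median was 0.086 in Lin-, and with thinned cells it was 0.39 in Lin+, so the direction of this median did not hold under these settings.

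Immediate early and heat shock genes were lower. Of 21 measured, 11 were lower in iAdFASNKO Lin- and 10 in iAdFASNKO Lin+, and none was higher, with medians of -0.60 and -0.58. The shares lower over all genes were 6.31% and 3.79%. Fos was at 834 CPM in iAdFASNKO Lin- and 1376 CPM in control Lin-, a ratio of 0.606 (0.545 to 0.673), and at 634 CPM in iAdFASNKO Lin+ and 1184 CPM in control Lin+, a ratio of 0.535 (0.484 to 0.591). Fosb, Dusp1, Nr4a1, Btg2, Socs3, Hspb1 and Atf3 were called lower in both fractions as well. The same list was lower in other gated cells, with 12 and 16 of 22 genes called and medians of -0.61 and -0.65. The list also responds to digestion and handling, which cannot be told apart from the genotype with 1 pool per genotype.

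Of the genes known from CD142-positive cells, 2 of 9 were higher and 1 lower in iAdFASNKO Lin-, with a median of -0.19. In Lin+, 4 of 10 were higher and 0 lower, with a median of 0.44. Over all genes the medians were -0.00 and 0.05, and for this list in other gated cells -0.22 and -0.02. By calls, 6.19% of all genes were higher and 6.31% lower in Lin-, and 4.99% and 3.79% in Lin+. Vit had ratios of 1.59 (1.31 to 1.95) in Lin- and 1.501 (1.28 to 1.76) in Lin+. Igsf10 had ratios of 1.88 (1.51 to 2.36) and 1.59 (1.24 to 2.03), so both were higher in iAdFASNKO in both fractions. Mgp differed by less than the size of a call, with ratios of 0.878 (0.839 to 0.918) and 1.20 (1.11 to 1.29), and so did Gdf10 and Bgn. Clec11a was lower in Lin- only, at 0.625 (0.485 to 0.801), against 1.06 (0.868 to 1.29) in Lin+, and that difference between fractions was not tested.

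Of 12 complement genes, 3 were higher in Lin-, C3 and C4b among them, and 2 were higher and Clu lower in Lin+. Beside these counts stand 6.19% of all genes higher and 6.31% lower in Lin-, and 4.99% and 3.79% in Lin+. Among adipogenic factors Klf5 was higher in both fractions, at 1.71 (1.24 to 2.37) and 2.08 (1.20 to 3.67), and Ebf2 was called higher and Cebpb lower in Lin- and neither was called in Lin+, a difference between fractions that was not tested. Klf2, which restrains adipocyte differentiation in culture, was lower in both, at 0.622 (0.425 to 0.900) and 0.328 (0.229 to 0.460). In Lin+ 4 of 11 such restraining factors were lower and Wnt5a was higher.

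Fabp4 was higher in iAdFASNKO Lin- F3-set cells, with a ratio of 6.48 (4.36 to 9.92), and 49 of its 158 UMIs there came from 1 cell. In Lin+ its ratio was 0.995 (0.430 to 2.24). Over all genes, 6.19% were higher and 6.31% lower in Lin-, and 4.99% and 3.79% in Lin+. Collagen genes were lower or not called: 4 of 16 were lower in Lin- and 2 of 15 in Lin+, among them Col1a1 and Col3a1 in Lin- and Col14a1 in Lin+. The collagen and matrix lists kept genes of the rule here, Col1a1 and Col3a1 of the gate among them. Their counts thus describe cells chosen partly on these genes. Matrix proteins gave 5 higher and 4 lower of 25 in Lin-, and 0 higher and 7 lower of 24 in Lin+, with fibronectin (Fn1) and Sparc lower in both. Elastin (Eln) was at 1215 CPM in iAdFASNKO Lin- and 398 CPM in control Lin-, with 228 of the 765 UMIs of the iAdFASNKO cells in 1 cell, and at 346 CPM in iAdFASNKO Lin+ and 483 CPM in control Lin+.

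**Figure D5:**
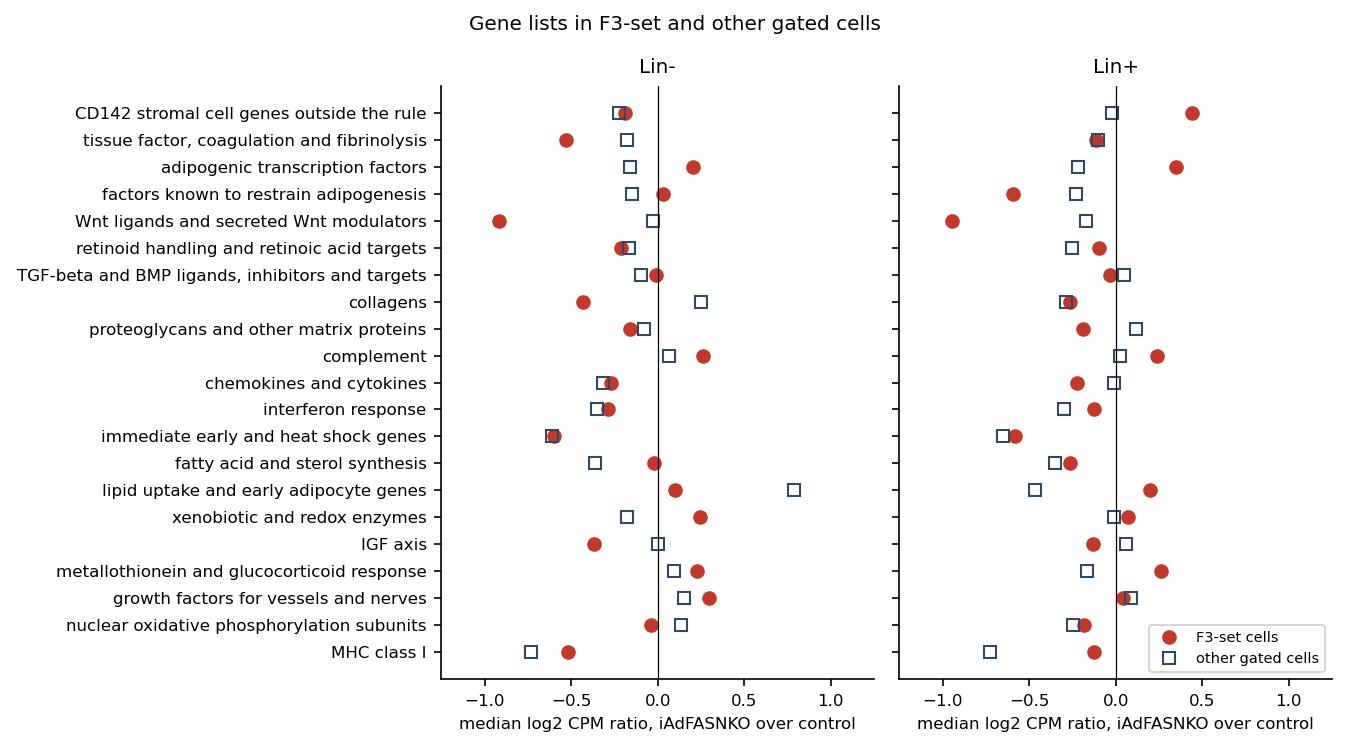
Median log2 CPM ratio of iAdFASNKO over control for 21 gene lists, in Lin- (left) and Lin+ (right), in F3-set cells (filled circles) and other gated cells (open squares). Genes of the rule are kept in the lists. In F3-set cells the Wnt list has the lowest median in both fractions (-0.92 and -0.95), and the immediate early and heat shock list lies near -0.60 in both groups of cells.

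In the other lists fewer genes were called. Lists that hold genes of the rule, such as F3 among the coagulation genes, kept them here. The shares over all genes were 6.19% higher and 6.31% lower in Lin-, and 4.99% and 3.79% in Lin+. Of 14 coagulation and fibrinolysis genes, 5 were lower in Lin- and 3 in Lin+, with Procr and Serpine2 lower in both and thrombomodulin (Thbd) higher in Lin+ at 2.22 (1.84 to 2.70). Igfbp3 was higher in both fractions, at 1.85 (1.27 to 2.69) and 2.55 (1.99 to 3.27), and so was Zbtb16, a target of the glucocorticoid receptor, at 2.42 (1.73 to 3.41) and 1.95 (1.59 to 2.39). Ccl7 was lower in both, from 2 UMIs in iAdFASNKO Lin- and 55 in control Lin-, and 5 in iAdFASNKO Lin+ and 56 in control Lin+. Of MHC class I genes, 1 of 9 was lower in Lin- and 0 of 10 in Lin+, with medians of -0.52 and -0.12. In other gated cells, whose sums were deeper, 8 and 7 of 12 were lower, with medians of -0.73 and -0.72. The difference between the cell groups was not tested. None of 25 oxidative phosphorylation genes was called in either fraction, and of 17 and 20 interferon response genes 2 and 0 were lower.

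For the lists that follow, the shares over all genes were 6.19% higher and 6.31% lower in Lin-, and 4.99% and 3.79% in Lin+. Of genes of fatty acid and sterol synthesis, 1 of 13 was lower in Lin- (the desaturase gene Fads1) and 3 of 14 in Lin+ (Insig1 and Hmgcs1 among them), and none was higher. Of 23 TGF-beta and BMP genes, 1 was higher and Bmp4, Fst and Eng were lower in Lin-, and of 21, Tgfb3 was lower in Lin+. Of growth factors for vessels and nerves, 5 of 18 were higher and 1 lower in Lin-, and 1 of 16 was higher and 2 lower in Lin+, with Hgf higher in both. Of xenobiotic and redox enzymes, 4 of 18 were higher and 2 lower in Lin-, and 2 of 19 were higher and 0 lower in Lin+. Of retinoid genes, 1 of 9 was higher and 1 lower in Lin-, and 1 of 12 was higher and 2 lower in Lin+.

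Fasn, the gene named in the knockout, was sparse in F3-set cells. It had 10 UMIs (15.9 CPM) in iAdFASNKO Lin- and 18 UMIs (23.2 CPM) in control Lin-, a ratio of 0.684 (0.282 to 1.56). In Lin+ it had 19 UMIs (21.9 CPM) in iAdFASNKO and 30 UMIs (26.0 CPM) in control, a ratio of 0.840 (0.447 to 1.54), so a difference was not detectable at this depth. In other gated cells the ratios were 0.656 (0.578 to 0.744) in Lin- and 0.585 (0.495 to 0.689) in Lin+. The UMIs are tags of the 3' end of the transcript, and which part of Fasn is deleted is not given in the sources used here, so its level does not check the labels. Mature adipocytes, the cells the knockout is named for, are removed when the stromal vascular fraction is prepared.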

How the data were processed

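Single-cell RNA was measured in 4 libraries of stromal vascular cells from mouse inguinal fat, and the deposited matrices hold counts, as whole UMIs per gene and barcode, not normalized. Per the submitters' processing notes, Cell Ranger 3.1.0, Seurat 3.0 and the mm10 build were used, while the file headers give software version 3.0.2. How barcodes were filtered, and with which annotation release, is not given in the sources used here. Genotype came from the name of a matrix, and fraction from the barcode tag, per the labels. Of 31053 features, 31011 had an entry in the gene annotation used for positions.

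A barcode was kept with 300 or more genes, 500 or more UMIs and no more than 10% of UMIs from mitochondrial genes. The members, the gene lists and the comparisons were chosen with earlier results of these data known. UMIs were summed over the cells of a group in a library, and total UMIs per library were 21622291 to 33016494. Summed depth of the F3-set cells was 629707 UMIs in iAdFASNKO Lin-, 774742 in control Lin-, 869315 in iAdFASNKO Lin+ and 1153440 in control Lin+. The mice of a genotype were pooled, so cells are not replicates and no p-value is given. Levels have exact Poisson intervals, their ratios exact conditional binomial intervals, shares Clopper-Pearson intervals and ratios of shares Katz intervals, all at 95%. The floor for a count of 0 was 3 counts. Between genotypes, the named genes were those called in the same direction in both fractions with at least 50 UMIs in each and no cell holding over 50% of a library's UMIs, the 12 in each direction with the largest smaller ratio. Against other gated cells they were the 15 higher and 10 lower genes with the largest smallest ratio over the 4 libraries, outside the genes of the rule. Members of the lists were named too, and these were not subject to the limit on 1 cell. Between genotypes and between fractions the lists kept genes of the rule, whose values are description only.

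Doublets were called with Scrublet at an expected 6%, which marked 2.27% (iAdFASNKO Lin-), 0.967% (control Lin-), 1.49% (iAdFASNKO Lin+) and 1.37% (control Lin+) of cells, and they were removed only in an alternative. Other alternatives were thinning to 3000 UMIs, TMM scaling, other filters, gates and UMI minimums, a larger ratio, the mean of scaled cells, and removal of the top cell of a gene or of cells with markers of other types, the last chosen after seeing the data. The scripts were tested on simulated data. Python 3.11.15, numpy 2.4.6, scipy 1.17.1, pandas 2.3.3, scanpy 1.11.5, matplotlib 3.10.9, R 4.3.3 and edgeR 4.0.16 (for TMM factors alone) were used. Some genes of the lists are not reported here.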

Additional observations from a re-analysis of the deposited data

Results flagged for a closer look

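The share of F3-set cells among gated cells went in different directions in the fractions, with an iAdFASNKO over control ratio of 1.52 in Lin- and 0.933 in Lin+. With 1 library per genotype and fraction the difference between the fractions was not tested, and the interval of the Lin+ ratio, 0.751 to 1.16, holds 1.

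Among the genes called in opposite directions between genotypes in the fractions, those with at least 50 UMIs in each fraction, and with no cell holding over 50% of the UMIs of a library, are given here, and in none of them was the difference tested. Aspn, Cilp and Lox were higher in iAdFASNKO Lin- and lower in iAdFASNKO Lin+. Aspn, a small leucine-rich matrix protein, was at 216 CPM in iAdFASNKO Lin- and 98.1 CPM in control Lin-, and at 10.4 CPM in iAdFASNKO Lin+ and 80.6 CPM in control Lin+, with log2 ratios of 1.14 and -2.96. Cilp, a cartilage matrix protein, was at 191 CPM in iAdFASNKO Lin- and 31.0 CPM in control Lin-, and at 36.8 CPM in iAdFASNKO Lin+ and 115 CPM in control Lin+, with log2 ratios of 2.62 and -1.65. Lox, the collagen crosslinking enzyme, had log2 ratios of 0.79 and -0.97.

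The same order of directions held for the small RNA gene Bc1 (log2 2.74 in Lin- and -1.39 in Lin+), Mustn1 (0.91 and -1.15), the cell cycle inhibitor Cdkn1c (0.70 and -1.10), Pi16 (0.69 and -0.76), which is a gene of another set in the rule, the adaptor subunit Ap2b1 (0.65 and -0.65) and mt-Atp8 (1.00 and -0.73). The opposite order was found for Tmed1 (-0.76 in Lin- and 0.99 in Lin+), Dtx4 (-0.77 and 0.70), Wasl (-0.68 and 0.61) and Hadhb, a subunit of the mitochondrial trifunctional protein (-0.59 and 0.66).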

How the results depend on the processing

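No paired analysis was possible because each genotype and fraction had 1 library of pooled mice. Of the counts of called genes, 94 of 118 stayed within 1.5 times the values reported, and 24 did not. With cells thinned to 3000 UMIs, the genes higher in iAdFASNKO numbered 178 in Lin- and 223 in Lin+, those lower in Lin+ 160, those higher and lower in F3-set cells 144 and 80, and those higher and lower in Lin+ over Lin- 67 and 80. Asking for at least 50 UMIs gave 275 genes higher in iAdFASNKO Lin+ and 128 lower in Lin+ over Lin-. A ratio of at least 2 gave 235 higher and 200 lower in Lin-, 193 higher and 178 lower in Lin+, 154 and 80 for F3-set cells, and 60 and 107 for Lin+ over Lin-. The mean of scaled cells, called by ratio alone, gave 1094 higher and 1388 lower in Lin-, 1566 higher and 997 lower in Lin+, 354 lower in F3-set cells, and 339 and 466 for Lin+ over Lin-. As shares of all cells, the genotype ratios were 1.09 in Lin- and 0.541 in Lin+. In thinned cells the log2 ratio of Zfp945 in Lin- was -0.088, that of Itm2a in Lin+ 0.026 and the median of the Wnt list in Lin+ 0.39. The median of the Wnt list in Lin- was 0.086 with at least 50 UMIs, and that of factors known to restrain adipogenesis in Lin+ was 0.057 both with at least 50 UMIs and with no minimum. Thinning changes the member cells, the depth and the genes measured together, and the cause was not tested. With 101 to 161 F3-set cells per library, genes of few UMIs could not be compared.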

Other observations

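Genes of the hedgehog pathway, a list put together after Hhip had been seen, were also higher in F3-set cells. The receptor gene Ptch1, the co-receptor Boc, the inhibitor Hhip and the target gene Gli1 were called higher than in other gated cells in all 4 libraries. Gli1 was at 63.5 CPM in iAdFASNKO Lin- and 46.5 CPM in control Lin-, and at 27.6 CPM in iAdFASNKO Lin+ and 29.5 CPM in control Lin+ F3-set cells, against 6.59, 3.02, 3.48 and 3.97 CPM in the other gated cells of those libraries. The transducer Smo, Gli3 and Sufu were called in none of the 4, and the ligands Shh, Ihh and Dhh had no UMI in F3-set cells.

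Acsbg1 was found outside the stromal gate too. A UMI of it was present in 13 of 315 Ptprc-positive cells in iAdFASNKO Lin- and 15 of 176 in control Lin-, and in 44 of 2335 in iAdFASNKO Lin+ and 16 of 902 in control Lin+.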
